A study of Mus musculus with 24 samples.

Results

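The 9 genes described here are 6 genes of transcription factors that mark the neural lineage (Sox1, Sox3, Sox11, Pax6, Zic1, and Zic5) and 3 genes of intermediate filaments of neural cells (Nes, Nefm, and Nefl). They were taken by symbol from the 26264 genes of the count table, and all 9 had a row and passed the filter on low counts in both clones. RNA-seq of polyA RNA was made from mouse embryonic stem cells (ESCs) of a BAP1-AID and a UTX-AID clone, in which an HA-AID tag had been placed on the histone H2A deubiquitinase BAP1 or the histone H3K27 demethylase UTX. Both clones also express TIR1, through which indole-3-acetic acid (IAA) leads to degradation of the tagged protein. Cells were left without IAA (−IAA) or pretreated with IAA for 2 h (+IAA), and then collected at 0, 3, and 6 h of 2 μM retinoic acid (RA) in medium without leukemia inhibitory factor, with 2 libraries in each of 12 groups and 24 libraries in all. RA and the withdrawal of the factor came together, so they cannot be told apart. Each line is 1 clone, so the tagged protein cannot be told apart from other differences between the clones, and no cells with an untagged protein entered. Loss of the tagged proteins cannot be seen in RNA and was not checked here. Nothing in the labels says that the libraries of a group came from separate cultures, so p-values measure the spread between these libraries, which may be technical.

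Retinoic acid binds nuclear receptors on DNA and is used to turn ESCs toward neural fates, which takes days. Along that path the SoxB1 factors Sox1 and Sox3 and the paired-box factor Pax6 mark the neural plate and neural progenitors. Zic1 and Zic5 are zinc finger factors of the dorsal neural tube, and Sox11 is a SoxC factor of progenitors and newborn neurons that ESCs also express. Nestin (Nes) is the intermediate filament of progenitors, and the light (Nefl) and medium (Nefm) neurofilament chains are assembled in the axons of neurons. The question asked of these libraries was which of these genes already respond within 6 h.

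The deposited counts summed to between 42018795 and 54034789 per library, and levels are given as counts scaled to the library total (CPM). A library without a count of a gene could still hold up to 3 counts, or 0.0545 to 0.0693 CPM, a limit that covers counting error only. The libraries were those of pluripotent cells at every time. The summed level of 8 pluripotency markers was 4028 to 4970 CPM in BAP1-AID and 4129 to 4641 CPM in UTX-AID, with all 8 above 1 CPM on average. The 5 markers of mature neurons summed to 0.756 to 2.99 CPM in BAP1-AID and 0.234 to 3.88 CPM in UTX-AID, with 0 of 5 above 1 CPM on average in either clone. The highest sums of the remaining lists in any library were 8.33 CPM for 6 endoderm markers, 3.09 CPM for 5 mesoderm markers, 9.71 CPM for 5 trophoblast markers and 5.77 CPM for 5 fibroblast markers, among which Postn was at 0 in all libraries. From 0 to 6 h of RA, as Nefl, Nefm, and Sox11 became lower, the fibroblast sums went from 4.71 to 5.77 CPM down to 2.19 to 2.5 CPM in −IAA BAP1-AID and from 4.72 to 5.35 CPM down to 1.75 to 3.69 CPM in −IAA UTX-AID. The fibroblast and trophoblast sums at 6 h lay below those at 0 h without overlap in all 4 series. In each of these lists only 1 of 5 markers averaged 1 CPM or more in either clone, so a sum may follow 1 gene. How often other genes parted in this way between 0 and 6 h was not counted. The endoderm sums lay above without overlap in both arms of BAP1-AID, going from 3.93 to 5.47 CPM up to 8.07 to 8.33 CPM without IAA. The part of such cells in the results was not tested.

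The promoters of Sox11 and Nefl, the members that fell in all 4 combinations of clone and arm by 6 h of RA, are shown first. They are the 250 bases before the canonical transcription start of each gene in mm39, written 5′ to 3′ on the strand of the gene, with each CpG dinucleotide in capitals. The Sox11 promoter lies at chr12:27392574-27392823 (minus strand) and the Nefl promoter at chr14:68321018-68321267 (plus strand).
Sox11: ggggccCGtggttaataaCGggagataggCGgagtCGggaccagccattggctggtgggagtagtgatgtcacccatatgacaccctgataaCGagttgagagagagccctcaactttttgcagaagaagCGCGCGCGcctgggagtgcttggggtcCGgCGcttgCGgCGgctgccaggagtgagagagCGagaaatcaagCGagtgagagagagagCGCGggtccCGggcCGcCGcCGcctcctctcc
Nefl: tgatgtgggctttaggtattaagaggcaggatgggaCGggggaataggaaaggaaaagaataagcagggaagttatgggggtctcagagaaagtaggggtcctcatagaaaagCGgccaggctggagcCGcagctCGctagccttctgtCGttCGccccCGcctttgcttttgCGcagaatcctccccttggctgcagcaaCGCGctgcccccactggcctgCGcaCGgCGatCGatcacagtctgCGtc
They hold 21 and 15 CpGs. The promoters of Sox1, Sox3, Pax6, Zic1, Zic5, and Nes hold 11 to 27, against a median of 8 over 21757 promoters of the same length, so these 8 all lie above that median. The half-sites AGGTCA and AGTTCA, to which retinoic acid receptors can bind, were searched on both strands. None is in the windows of Sox11 or Nefl, 2 are in that of Zic5 and 1 is in that of Nes, while 23.4% of all promoters hold at least 1.

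Positions in mm39 bear on what the counts can resolve. Sox1 (chromosome 8, 12445295 to 12450126), Sox3 (chromosome X, 59934972 to 59937036), and Sox11 (chromosome 12, 27384263 to 27392573) are each a single exon. Nefl (chromosome 14, 68321268 to 68326544) and Nefm (canonical transcript at 68356732 to 68362305) are neighbours on opposite strands, and an extended isoform of Nefm runs over Nefl, so that their exons share 1152 bases. Pax6 (chromosome 2, 105499234 to 105530952) shares 3393 exonic bases with Elp4, an Elongator subunit gene on the other strand, and Zic1 (chromosome 9, 91240111 to 91247863) shares 172 with Zic4, which held at most 8 counts in any library. Whether the counting used strand is not given in the sources used here, so reads of these shared bases cannot be assigned to 1 gene. Zic5 (chromosome 14, 122694190 to 122703089) starts 8738 bases from Zic2, and Nes (chromosome 3, 87878385 to 87887758) has its nearest coding neighbour 7077 bases away.

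At 0 h without IAA, the members were expressed over a wide range of levels, given here as mean CPM per kilobase of exon. In BAP1-AID ESCs, Sox11 stood at 14.2 ± 0.325 (SD, n = 2) and Nefl at 13.9 ± 0.854, and these did not differ beyond their spread. Sox3 followed at 6.81 ± 0.861, Nes at 5.49 ± 1.24, and Zic5 at 4.5 ± 0.294, with neighbours among these 3 again within their spread. Sox1 (1.51 ± 0.153), Pax6 (1.11 ± 0.154), Nefm (0.585 ± 0.054), and Zic1 (0.193 ± 0.0275) were lower. The place of Pax6 depends on its union of all annotated exons, 16047 bases against 4832 for Sox1. In CPM, Pax6 held 17.8 and Sox1 7.28. In UTX-AID ESCs the order began with Nefl at 6.9 ± 0.349, Sox11 at 4.97 ± 0.394, Zic5 at 3.88 ± 0.0225, and Nes at 3.37 ± 0.307. Pax6 (0.859 ± 0.0268), Sox1 (0.708 ± 0.00476), Sox3 (0.566 ± 0.0504), and Nefm (0.497 ± 0.0486) followed, of which Sox3 and Nefm did not differ beyond their spread, and Zic1 was last at 0.0631 ± 0.0185. Sox3 thus held the third place in BAP1-AID and the seventh in UTX-AID.

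**Figure D1:**
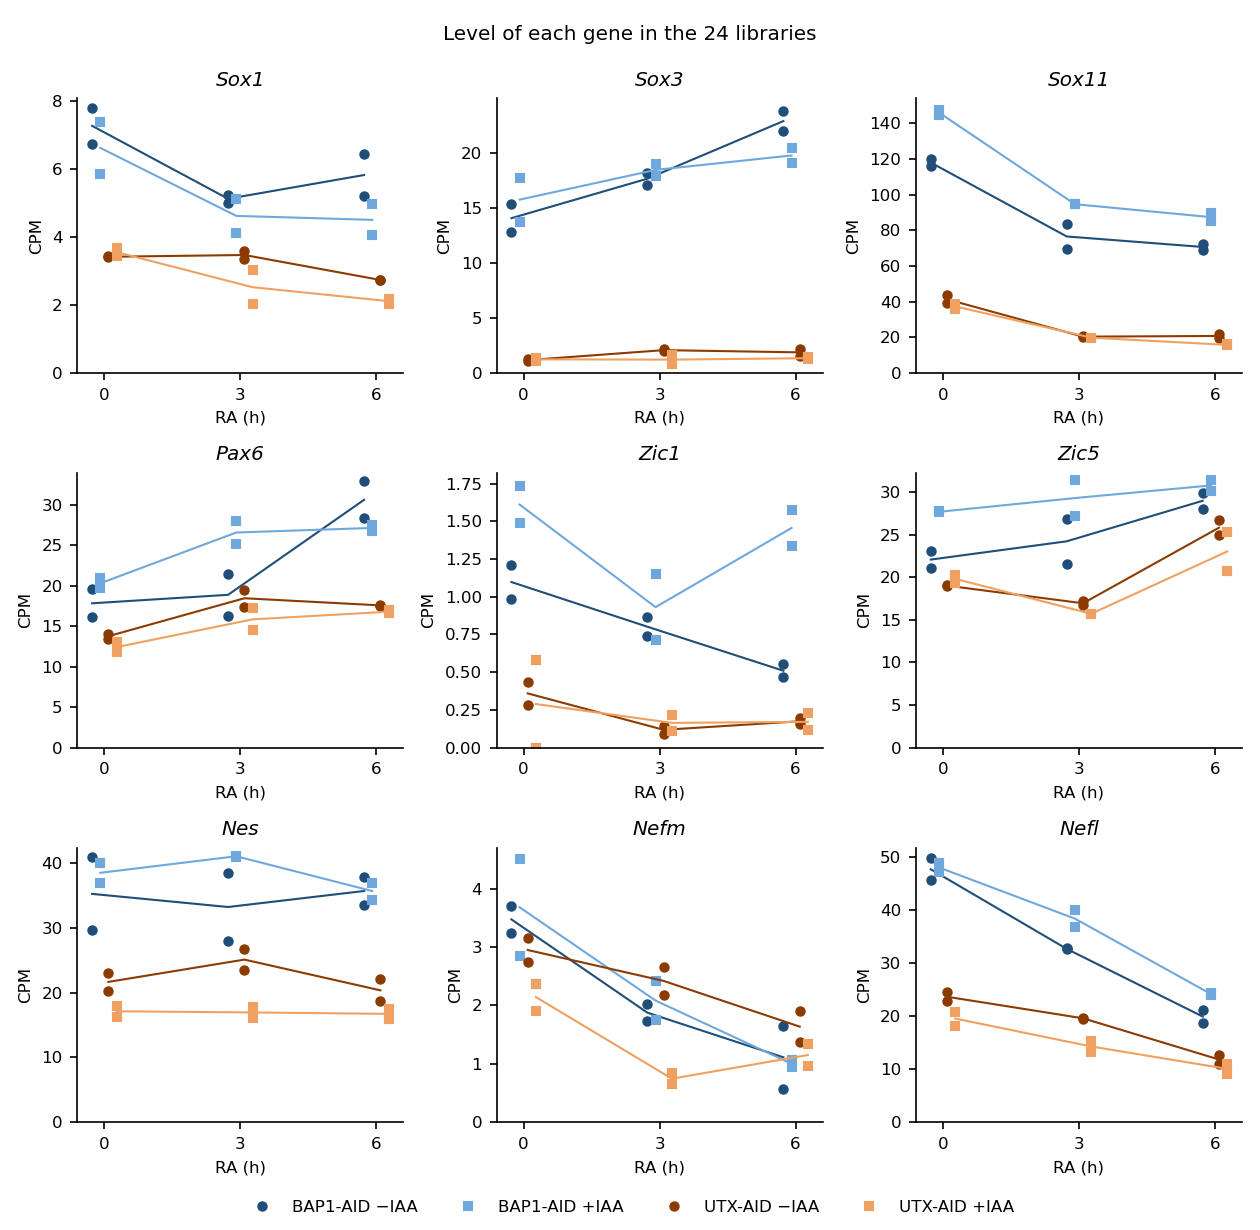
Level in CPM of each of the 9 genes in every library against hours of RA, with circles for −IAA, squares for +IAA, blue for BAP1-AID, brown and orange for UTX-AID, and lines through the means of 2 libraries. Nefl and Sox11 lie lower at 6 h than at 0 h in all 4 series, Pax6 lies higher in all 4, and Nes shows no common direction.

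By 6 h of RA, the members that had changed in all 4 combinations of clone and arm were Nefl and Sox11, and both had fallen. In this account a gene rose or fell where the adjusted p of edgeR's quasi-likelihood test, corrected by Benjamini-Hochberg over all genes tested, was under 0.05, and it was called where the fold also exceeded 2. Without IAA, 3 of 9 members rose in BAP1-AID (Pax6, Sox3, and Zic5) and 3 fell (Nefl, Sox11, and Nefm), against 10.8% and 5.08% of 15695 genes. With IAA, 0 rose in this clone and 3 fell (again Nefl, Sox11, and Nefm), against 8.93% and 6.44%. In UTX-AID ESCs, 1 rose without IAA (Zic5) and 2 fell (Nefl and Sox11), against 4.28% and 2.62% of 16268 genes. With IAA, 1 rose (Pax6) and 2 fell (Nefl and Sox11), against 4.05% and 2.4%. Where none rose by edgeR's quasi-likelihood test, 6 of 9 members had an unadjusted p under 0.05 in either direction, against 4174 of 15695 genes. By DESeq2, 4 members had an adjusted p under 0.05 there, and the share of all genes was not counted. Called members numbered 2 (Nefl and Nefm), 1 (Nefm), 0, and 1 (Sox11) in these 4 comparisons, all lower, against 4.1%, 4.51%, 1.91%, and 2.0% of all genes called in either direction. Where 0 were called, 5 members had an unadjusted p under 0.05, against 2748 of 16268 genes. DESeq2 called 0 members there, against 361 genes. The counts of called members moved with single libraries. Nefl lay close to 2-fold in +IAA BAP1-AID and in both arms of UTX-AID, and Sox11 did so in −IAA UTX-AID. In −IAA BAP1-AID the count moved with the adjusted p of Nefm. With 1 library left out there, Nefl stayed at -1.37 to -1.2 and Sox11 at -0.8 to -0.72 on the log2 scale. In +IAA BAP1-AID it moved with both Nefl and Nefm. The count was 1 without replicate 1 of 0 h or replicate 1 of 6 h in −IAA BAP1-AID, while in +IAA BAP1-AID it was 0 without replicate 1 of 0 h and 2 without replicate 2 of 0 h or replicate 1 of 6 h. In −IAA UTX-AID it was 2 without replicate 1 of 0 h and 1 without either library of 6 h, and in +IAA UTX-AID it was 2 without replicate 2 of 0 h or replicate 1 of 6 h. The median log2 fold change of the 9 was -0.31, -0.15, -0.32, and -0.74, while that of all genes tested lay between -0.0026 and 0.016. In bulk RNA, fewer cells expressing a gene and less RNA per cell cannot be told apart.

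At 3 h, fewer members had moved. In BAP1-AID ESCs, Nefl and Sox11 fell in both arms, making 2 of 9 lower against 1.85% of all genes (−IAA) and 1.91% (+IAA), and 0 rose against 5.51% and 4.61%. In −IAA UTX-AID ESCs, Sox11 fell (1 of 9 against 1.28%) and Pax6 rose (1 of 9 against 3.56%). In +IAA UTX-AID ESCs, Sox11 and Nefm fell (2 of 9 against 0.799%) and 0 rose against 2.77%. Called members numbered 0 in both arms of BAP1-AID, against 2.25% and 2.41%, and 1 in each arm of UTX-AID, against 1.51% (Sox11, −IAA) and 1.26% (Nefm, +IAA). Where no member was called, DESeq2 called 0 as well, against 427 (−IAA) and 486 (+IAA) of 15695 genes. In each arm of BAP1-AID, 5 members had an unadjusted p under 0.05, against 2752 (−IAA) and 2533 (+IAA) genes.

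**Figure D2:**
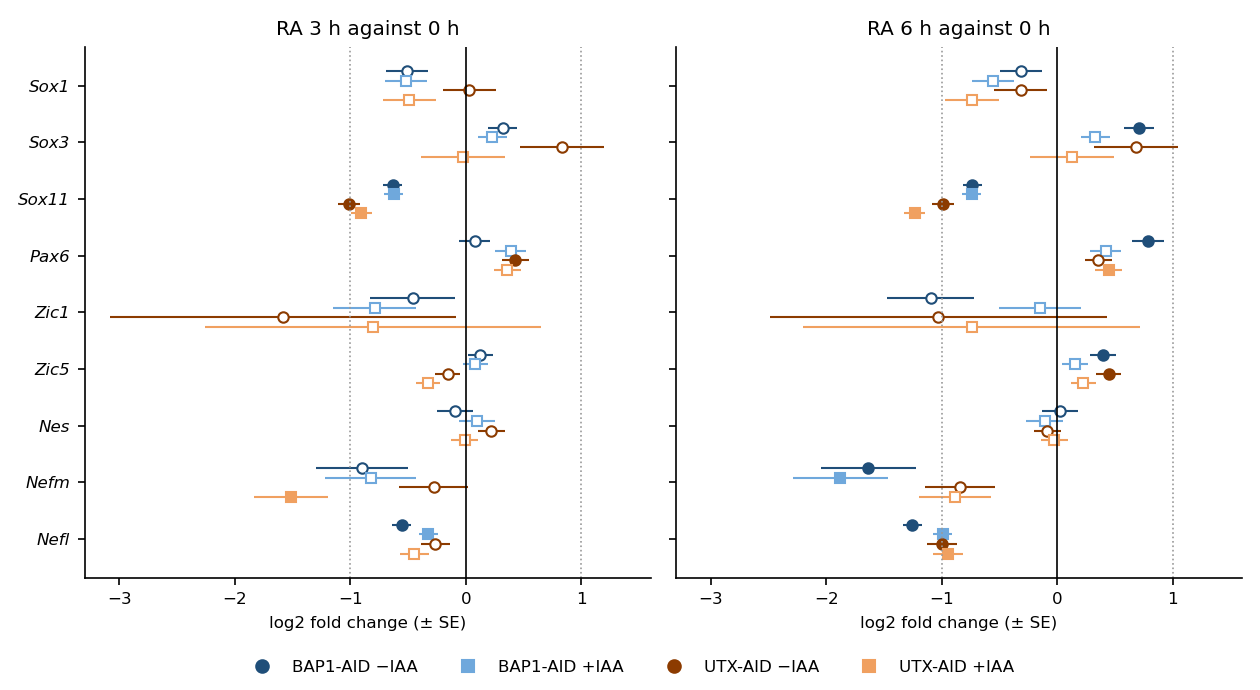
Log2 fold change of each gene at 3 h (left) and 6 h (right) of RA against 0 h, ± SE of edgeR's fit, in the 4 combinations of clone and arm. Filled symbols have an adjusted p under 0.05, dotted lines mark a 2-fold change, and Nefl and Sox11 have filled symbols left of 0 in all 4 at 6 h.

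Nefl, the light neurofilament chain, was lower at each later time in both clones. In −IAA BAP1-AID ESCs, its 2 libraries held 45.6 and 49.7 CPM at 0 h, 32.6 and 32.8 CPM at 3 h, and 18.8 and 21.1 CPM at 6 h. With IAA, the values in this clone were 47.2 and 48.8 CPM, then 36.8 and 39.9 CPM, and then 24 and 24.3 CPM. The groups did not overlap at any step in either arm of this clone. UTX-AID ESCs began at a lower level, with 22.8 and 24.5 CPM at 0 h, 19.5 and 19.7 CPM at 3 h, and 11.0 and 12.7 CPM at 6 h without IAA, and with 18.2 and 20.9, 13.2 and 15.4, and 9.05 and 11.1 CPM with IAA. Each 6 h library lay below each 0 h library here too. With 2 libraries per group, libraries can part without a real difference. The share of all genes that parted was not counted, here or for the members below. The log2 fold change of Nefl at 6 h was -1.25 (SE 0.084) without and -0.99 (SE 0.083) with IAA in BAP1-AID. The corresponding values of UTX-AID were -0.997 (SE 0.13) and -0.95 (SE 0.13). Adjusted p-values for these, in the same order, were 7.22e-07, 4.74e-06, 9.76e-05, and 0.000169, and none exceeded 0.00567 in any fit that left out 1 library. The mean CPM of Nefl thus changed by -58.2% to -48.6%. At 3 h BAP1-AID had log2 fold changes of -0.55 (adjusted p = 0.000997) and -0.32 (adjusted p = 0.0339), which passed. Those of UTX-AID at 3 h, -0.26 (adjusted p = 0.34) without and -0.45 (adjusted p = 0.0781) with IAA, did not. The fall at 3 h in +IAA BAP1-AID passed in none of the 4 fits that left out 1 of its 4 libraries, with adjusted p-values from 0.0575 to 0.222.

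Nefm, the medium chain encoded beside Nefl, was far less abundant, and its calls were less certain. Its 2 libraries held 3.25 and 3.70 CPM at 0 h and 0.569 and 1.65 CPM at 6 h in −IAA BAP1-AID ESCs, and 2.86 and 4.51 CPM and then 0.940 and 1.06 CPM in +IAA. In counts, the 6 h libraries of this clone held 28 to 84. Nefm shares 1152 exonic bases with Nefl, and whether reads of Nefl entered its counts was not tested. In UTX-AID, Nefm went from 2.75 and 3.15 CPM to 1.37 and 1.91 CPM without IAA, and from 1.91 and 2.37 CPM to 0.971 and 1.33 CPM with IAA. All 6 h libraries lay below the 0 h libraries of their group, though not every comparison passed. Nefm fell at 6 h in BAP1-AID, with log2 fold changes of -1.63 (SE 0.41, adjusted p = 0.0171) and -1.88 (SE 0.41, adjusted p = 0.0081), whereas those in UTX-AID were -0.84 (adjusted p = 0.135) and -0.88 (adjusted p = 0.123). In +IAA UTX-AID the lowest level was at 3 h, with 0.656 and 0.835 CPM and a log2 fold change of -1.51 (SE 0.32, adjusted p = 0.0109). These calls rest on single libraries. Without IAA in BAP1-AID, the 6 h call was lost without replicate 1 of 0 h (adjusted p = 0.0829) or replicate 1 of 6 h (0.0976), and with IAA it was lost without replicate 1 of 0 h (0.0724) or replicate 2 of 6 h (0.068). The 3 h call in UTX-AID was lost without replicate 1 of 0 h (0.101) or replicate 2 of 3 h (0.133).

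Nes, the filament of neural progenitors, showed no response that passed the test. It held 28.0 to 41.1 CPM across the 12 BAP1-AID libraries and 15.9 to 26.7 CPM across the 12 UTX-AID libraries. Its log2 fold changes at 6 h were 0.02, -0.11, -0.09, and -0.02, each with an SE of 0.12 to 0.16 and adjusted p-values of 0.738 to 0.967. A change smaller than these errors allow was not detectable in 2 libraries per group.

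Sox11, the SoxC factor and at 0 h the member with the highest CPM in both clones, had fallen by 3 h in all 4 series. Without IAA in BAP1-AID it held 116 and 120 CPM at 0 h, 69.7 and 83.4 CPM at 3 h, and 69.0 and 72.4 CPM at 6 h. With IAA the values were 145 and 147, 94.6 and 94.7, and 85.1 and 89.7 CPM. All later libraries lay below those at 0 h, while the 3 and 6 h libraries overlapped only without IAA. In UTX-AID, Sox11 went from 39.0 and 43.6 CPM to 20.1 and 20.7 CPM and then 19.6 and 21.9 CPM without IAA, and from 35.9 and 38.7 CPM to 19.8 and 19.9 CPM and then 15.5 and 16.0 CPM with IAA. The log2 fold change at 3 h was -0.63 (−IAA) and -0.62 (+IAA) for BAP1-AID, and for UTX-AID it was -1.01 and -0.90, with adjusted p-values from 4.06e-06 to 0.00041. At 6 h it was -0.73 (SE 0.084), -0.74 (SE 0.083), -0.99 (SE 0.092), and -1.23 (SE 0.093), with adjusted p-values from 4.16e-07 to 7.29e-05. Between 3 and 6 h without IAA, BAP1-AID showed a log2 change of -0.10 (adjusted p = 0.582), and UTX-AID one of 0.02 (adjusted p = 0.981), while this interval was not tested with IAA. The fold at 3 h in −IAA UTX-AID lay at the 2-fold line, and that call was lost without replicate 2 of 0 h, where the log2 fold change was -0.95, still with an adjusted p of 6.36e-05.

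Pax6, the paired-box factor of neural progenitors and eye, was the member with the most evidence of an early rise. Its libraries held 16.1 and 19.6 CPM at 0 h, 16.3 and 21.5 CPM at 3 h, and 28.4 and 32.9 CPM at 6 h in −IAA BAP1-AID ESCs. With IAA in this clone, Pax6 held 19.7 and 21.0, 25.2 and 28.0, and 26.8 and 27.5 CPM. In UTX-AID, it held 13.5 and 14.1, 17.4 and 19.5, and 17.5 and 17.7 CPM without IAA, and 11.8 and 13.1, 14.5 and 17.2, and 16.6 and 17.0 CPM with IAA. Every 6 h library lay above the 0 h libraries of its group, and in 3 of the 4 series every 3 h library did so too, the exception being −IAA BAP1-AID. How many of all genes parted in this way was not counted. The log2 fold change at 6 h was 0.79 (SE 0.14, adjusted p = 0.00178) in −IAA BAP1-AID, 0.42 (SE 0.14, adjusted p = 0.0584) in +IAA BAP1-AID, 0.36 (SE 0.12, adjusted p = 0.0903) in −IAA UTX-AID, and 0.45 (SE 0.12, adjusted p = 0.0291) in +IAA UTX-AID. Of 7 alternative fits with all libraries, Pax6 passed at 6 h in 7, 4, 0, and 6, in the same order. At 3 h only −IAA UTX-AID passed, at 0.43 (SE 0.12, adjusted p = 0.0438). The rise in −IAA BAP1-AID passed whichever of its 4 libraries was left out, with adjusted p-values from 0.00363 to 0.0313, whereas both passing values in UTX-AID failed in each such fit (0.0692 to 0.248 at 6 h and 0.0687 to 0.257 at 3 h). Elp4, which shares exon sequence with Pax6, held 17.2 to 24.4 CPM, and its log2 fold changes at 6 h were 0.03, 0.28, -0.05, and 0.02 in the same order, of which none passed.

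Sox3 and Sox1, the SoxB1 factors, did not move together. Sox3 held 12.8 and 15.3 CPM at 0 h, 17.1 and 18.2 CPM at 3 h, and 21.9 and 23.8 CPM at 6 h in −IAA BAP1-AID ESCs, and it rose by 0.71 (SE 0.13, adjusted p = 0.0021) on the log2 scale at 6 h. This rise passed whichever of the 4 libraries was left out, with adjusted p-values from 0.00415 to 0.032. With IAA, Sox3 went from 13.7 and 17.7 CPM to 19.1 and 20.4 CPM, a log2 fold change of 0.33 (SE 0.13, adjusted p = 0.109). This value passed in 2 of 7 alternative fits with all libraries. In UTX-AID, the 12 libraries held 44 to 113 counts of Sox3, and its log2 fold changes at 6 h of 0.68 (SE 0.36) and 0.13 (SE 0.37) had adjusted p-values of 0.38 and 0.932. Sox1, the SoxB1 factor of the committed neural plate, gave negative values at 6 h in all 4 series, which were -0.31, -0.55, -0.32, and -0.74, with adjusted p-values of 0.305, 0.0652, 0.572, and 0.0806. Its level went from 6.76 and 7.80 CPM to 5.22 and 6.44 CPM in −IAA BAP1-AID, and from 3.41 and 3.44 CPM to 2.74 CPM in both libraries in −IAA UTX-AID. All 6 h libraries lay below those at 0 h in their group, and none of these differences passed the test. No count was made of all genes that parted in this way, so the parting alone is not evidence of a fall.

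Zic5 and Zic1 also parted. Zic5 held 21.1 and 23.1 CPM at 0 h, 21.6 and 26.9 CPM at 3 h, and 28.0 and 29.9 CPM at 6 h in −IAA BAP1-AID ESCs, and 18.9 and 19.1, 16.7 and 17.2, and 24.9 and 26.7 CPM in −IAA UTX-AID ESCs. It rose at 6 h by 0.40 (SE 0.11, adjusted p = 0.0297) and 0.45 (SE 0.11, adjusted p = 0.0161) on the log2 scale. With IAA, the log2 fold changes at 6 h were 0.15 (adjusted p = 0.436) and 0.23 (adjusted p = 0.296). The rise in −IAA BAP1-AID failed in each of the 4 fits with 1 library left out (adjusted p = 0.0581 to 0.229). In −IAA UTX-AID it failed without replicate 1 (0.071) or 2 (0.0943) of 0 h or replicate 2 of 6 h (0.132). Zic2, the neighbour of Zic5, had log2 fold changes from -0.13 to 0.01 at 6 h, and none passed. At 3 h Zic2 was lower in BAP1-AID, by -0.37 without IAA (adjusted p = 0.00642) and -0.35 with IAA (adjusted p = 0.0102). In UTX-AID its values at 3 h were -0.33 without IAA (adjusted p = 0.0511) and -0.72 with IAA (adjusted p = 0.000131). Zic1 was near the limit of detection in UTX-AID, with 0 to 29 counts per library, and held 23 to 90 counts in BAP1-AID, where its log2 fold changes at 6 h of -1.10 (SE 0.38, adjusted p = 0.0731) and -0.15 (SE 0.35, adjusted p = 0.858) did not pass. At this depth a change of Zic1 in UTX-AID was not detectable, with SEs of about 1.46 on the log2 scale.

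The interval from 3 to 6 h was tested without IAA. In BAP1-AID ESCs, 2 of 9 members passed against 1.98% of all genes, Pax6 with a log2 change of 0.71 (SE 0.14, adjusted p = 0.022) and Nefl with a log2 change of -0.70 (SE 0.084, adjusted p = 0.00109). In UTX-AID ESCs, 2 of 9 passed against 0.486%, Zic5 with a log2 change of 0.60 (SE 0.11, adjusted p = 0.0242) and Nefl with a log2 change of -0.73 (SE 0.13, adjusted p = 0.0242). The fall of Nefl was thus seen in the later interval in both clones. In BAP1-AID it passed whichever library was left out, up to an adjusted p of 0.0257, whereas both UTX-AID values failed in each such fit (0.0517 to 0.229 for Nefl and 0.069 to 0.204 for Zic5). Pax6 failed without replicate 1 of 3 h (0.0549) or replicate 1 (0.202) or 2 (0.0712) of 6 h.

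In BAP1-AID ESCs, +IAA libraries held slightly more Sox11 at each time. The log2 difference between +IAA and −IAA was 0.30 at 0 h (SE 0.083, adjusted p = 0.0263), 0.30 at 3 h (SE 0.084, adjusted p = 0.0332), and 0.29 at 6 h (SE 0.084, adjusted p = 0.0412). Sox11 was the member that passed at 0 h (1 of 9 against 18.5% of all genes), Pax6 joined it at 3 h with 0.49 (SE 0.14, adjusted p = 0.0346, 2 of 9 against 13.3%), and Zic1 joined it at 6 h with 1.49 (SE 0.38, adjusted p = 0.022, 2 of 9 against 12.5%). Only Zic1 exceeded 2-fold (1 of 9 called against 1.61%), with 68 and 77 counts in +IAA and 23 and 28 in −IAA. The shares of members lay near a background that was itself high in this clone. Over all genes, these differences followed the GC content of the exons, with Spearman correlations of -0.42, -0.39, and -0.43 at 0, 3, and 6 h, across genes, which are not independent replicates. Once GC content and length were corrected for, Sox11 differed by 0.27 (adjusted p = 0.0205), 0.23 (adjusted p = 0.0611), and 0.27 (adjusted p = 0.0285), Pax6 at 3 h by 0.46 (adjusted p = 0.0425), and Zic1 at 6 h by 1.45 (adjusted p = 0.0424). Zic5 at 0 h, at 0.32 (adjusted p = 0.0718) as fitted, passed with this correction at 0.47 (adjusted p = 0.0244). Zic1 failed in all 4 fits with 1 library left out (adjusted p = 0.0619 to 0.129), as did Sox11 at 0 h (0.073 to 0.138) and at 6 h (0.0891 to 0.189). At 3 h, Sox11 failed without replicate 1 (0.139) or 2 (0.141) of +IAA or replicate 1 of −IAA (0.123), and Pax6 failed without replicate 1 (0.084) or 2 (0.19) of +IAA or replicate 1 of −IAA (0.183).

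In UTX-AID ESCs, 1 member differed between the arms, Nefm at 3 h. Its libraries held 0.656 and 0.835 CPM in +IAA and 2.19 and 2.66 CPM in −IAA, a log2 difference of -1.70 (SE 0.32, adjusted p = 0.0394), and 1 of 9 members stood against 0.264% of all genes that passed and 0.043% that were called. This value failed in all 4 fits that left out 1 library, with adjusted p-values from 0.0734 to 0.312. Nes at 3 h held 16.1 and 17.7 CPM in +IAA and 23.5 and 26.7 CPM in −IAA, and its log2 difference of -0.57 (adjusted p = 0.0581) did not pass as fitted. With GC content and length corrected it passed (adjusted p = 0.0497), as it did by DESeq2 (0.00497), with the replicate block (0.0259), and without the filter on low counts (0.0145), but in none of the 4 fits that left out 1 library (0.0869 to 0.387). At 0 and 6 h, 0 of 9 members passed against 0.043% and 0.0307% of all genes. Of the 9, 2 had an unadjusted p under 0.05 at each of these times, against 1303 and 1019 of 16268 genes. DESeq2 passed 0 members at either time.

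For no member did a difference in RA response between the arms pass the test. This test, of the +IAA response minus the −IAA response, passed for 0 of 9 members at 3 h (0.0% of all genes) and 6 h (0.153%) in BAP1-AID, and for 0 of 9 at 3 h (0.0123%) and 6 h (0.0%) in UTX-AID. The unadjusted p was under 0.05 for 0, 1, 1, and 0 members in these tests. It was so for 1176 and 1615 of 15695 genes in BAP1-AID and 671 and 558 of 16268 in UTX-AID. DESeq2 passed 0 members in each. For Nefl the difference in log2 response at 6 h was 0.26 (SE 0.12) in BAP1-AID and 0.05 (SE 0.18) in UTX-AID, and for Sox11 it was -0.01 (SE 0.12) and -0.25 (SE 0.13). For Pax6 it was -0.37 (SE 0.19) and 0.09 (SE 0.16), for Sox3 -0.38 (SE 0.18) and -0.55 (SE 0.52), and for Nefm -0.24 (SE 0.57) and -0.04 (SE 0.43). The errors were smallest for Nefl and Sox11 in BAP1-AID and largest for Nefm and for Sox3 in UTX-AID among these.

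**Figure D3:**
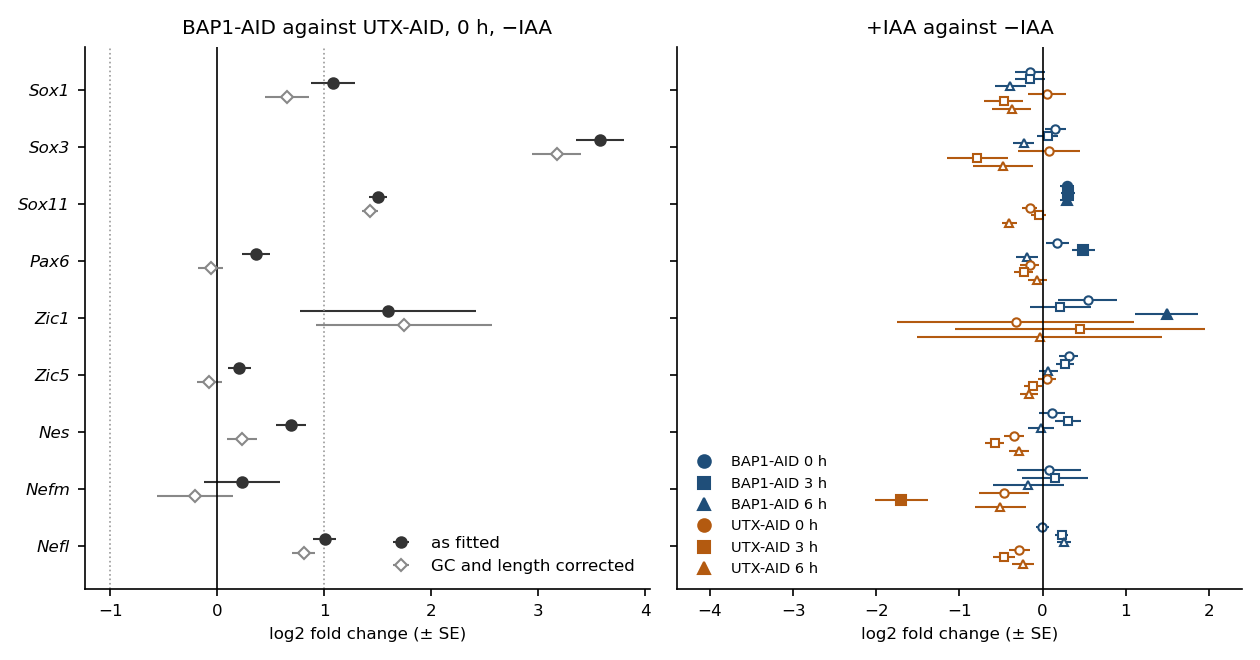
Left, log2 difference of BAP1-AID against UTX-AID at 0 h without IAA for each gene, ± SE, as fitted (circles) and with GC content and transcript length corrected (open diamonds), with dotted lines at a 2-fold difference. Right, log2 difference of +IAA against −IAA at 0, 3, and 6 h in both clones, ± SE, with filled symbols where the adjusted p was under 0.05. Sox3 has the largest clone difference of the 9, at 3.58.

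Most members were more abundant in the BAP1-AID clone. At 0 h without IAA, all 9 members had a higher mean CPM in BAP1-AID than in UTX-AID. The share of all genes with a higher mean was not counted, and their median log2 difference was -0.014. Members passing as higher were 6 of 9 against 27.2% of 16816 genes, and 4 of 9 were called against 20.9% called in either direction. Over 6 alternative fits, the log2 difference was -0.21 to 0.24 for Nefm, -0.08 to 0.22 for Zic5, and -0.06 to 0.37 for Pax6. The sign was thus not settled for these members. Sox3 held 12.8 and 15.3 CPM in BAP1-AID and 1.09 and 1.24 CPM in UTX-AID, which was 12-fold by the means and 3.58 on the log2 scale (SE 0.23, adjusted p = 5.54e-12). Sox11 was higher by 1.51 (SE 0.085, adjusted p = 8.21e-13), Sox1 by 1.08, and Nefl by 1.00 (SE 0.1, adjusted p = 2.59e-08). Nes by 0.69 (adjusted p = 0.000232) and Pax6 by 0.36 (adjusted p = 0.0217) passed at less than 2-fold. Clone and library preparation cannot be told apart. Over all genes this difference followed exon GC content (Spearman 0.33 across genes), and the exons of Sox3 and Sox1 are GC-rich, at the 99.5th and 90.5th percentile of the table. With GC content and length corrected, Sox3 (3.17) and Sox11 (1.43) remained called, Sox1 (0.65, adjusted p = 0.011) and Nefl (0.81, adjusted p = 8.31e-07) passed below 2-fold, and Nes (0.23, adjusted p = 0.183) and Pax6 (-0.06, adjusted p = 0.712) no longer passed. Without replicate 2 of BAP1-AID, 2 members were called, and Pax6 failed without it (adjusted p = 0.22) or without replicate 2 of UTX-AID (0.108). The 6 h response without IAA differed between the clones for 0 of 9 members, against 0.505% of all genes. For 1 member the unadjusted p was under 0.05, against 1689 of 16816 genes, and 0 members passed by DESeq2.

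A list of 74 further neural genes shows the setting of these members, with 66 passing the filter in BAP1-AID and 55 in UTX-AID. More of them fell than rose by 6 h. In BAP1-AID, 7 rose and 15 fell without IAA, against 10.8% and 5.08% of all genes, and 6 rose and 16 fell with IAA, against 8.93% and 6.44%. In UTX-AID, 2 rose and 9 fell without IAA, against 4.28% and 2.62%, and 2 rose and 12 fell with IAA, against 4.05% and 2.4%. The rises lay near the share of all genes, and the falls stood above it. Their median log2 fold changes were -0.18, -0.26, -0.26, and -0.40. Genes lower in all 4 comparisons included the cadherin gene Cdh2, the filament genes Ina and Nefh, and the factor genes Otx2, Pou3f1, and Sox21. Higher in all 4 were 2 genes, Elavl3 and Rfx4. The log2 fold changes of the heavy neurofilament chain (Nefh) were -0.47 to -0.27 and those of α-internexin (Ina), a further neurofilament subunit, were -0.57 to -0.28, in the direction of Nefl and smaller. Among SoxB and SoxC relatives, Sox21 had log2 fold changes from -0.63 in −IAA BAP1-AID to -1.10 in +IAA UTX-AID and -1.19 in −IAA UTX-AID, Sox12 fell in 3 of 4, and Sox4 in 1. Sox2, the SoxB1 relative of Sox1 and Sox3 that maintains pluripotency, fell in UTX-AID at -0.53 (adjusted p = 1.98e-05) without and -0.49 (adjusted p = 4.35e-05) with IAA, and had -0.24 (adjusted p = 0.0895 and 0.0829) in both arms of BAP1-AID.

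The 3 further genes called in all 4 comparisons at 6 h moved in both directions. Otx2, a homeobox gene of the epiblast and forebrain, went from 168 ± 12 CPM (SD, n = 2) at 0 h to 54.5 ± 7.76 at 3 h and 35.9 ± 0.786 at 6 h in −IAA BAP1-AID, and from 39.0 ± 5.39 to 8.85 ± 1.09 and 4.47 ± 1.36 in −IAA UTX-AID. Its log2 fold changes at 6 h were -3.55 to -2.22 over the 4 comparisons. Elavl3, which encodes a neuronal RNA-binding protein, rose from 3.34 ± 0.0452 to 9.26 ± 0.998 CPM in −IAA BAP1-AID and from 7.66 ± 0.209 to 20.8 ± 1.38 CPM in −IAA UTX-AID by 6 h, with log2 fold changes of 1.45 to 1.71. Rfx4, an RFX factor gene of the neural tube, rose from 1.20 ± 0.0909 to 5.52 ± 0.0945 CPM and from 0.502 ± 0.0196 to 2.11 ± 0.0418 CPM, with log2 fold changes of 1.32 to 2.2. The largest rise among the 9 members, that of Pax6 in −IAA BAP1-AID, was 0.79. Gbx2, a homeobox gene of the hindbrain border and of naive ESCs, was the list's only gene whose 6 h response without IAA differed between the clones (0.85, SE 0.12, adjusted p = 0.000797). BAP1-AID had a log2 fold change of 0.34 (adjusted p = 0.0117) and UTX-AID one of -0.53 (adjusted p = 0.00287), and the gene was named after its values were seen.

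**Figure D4:**
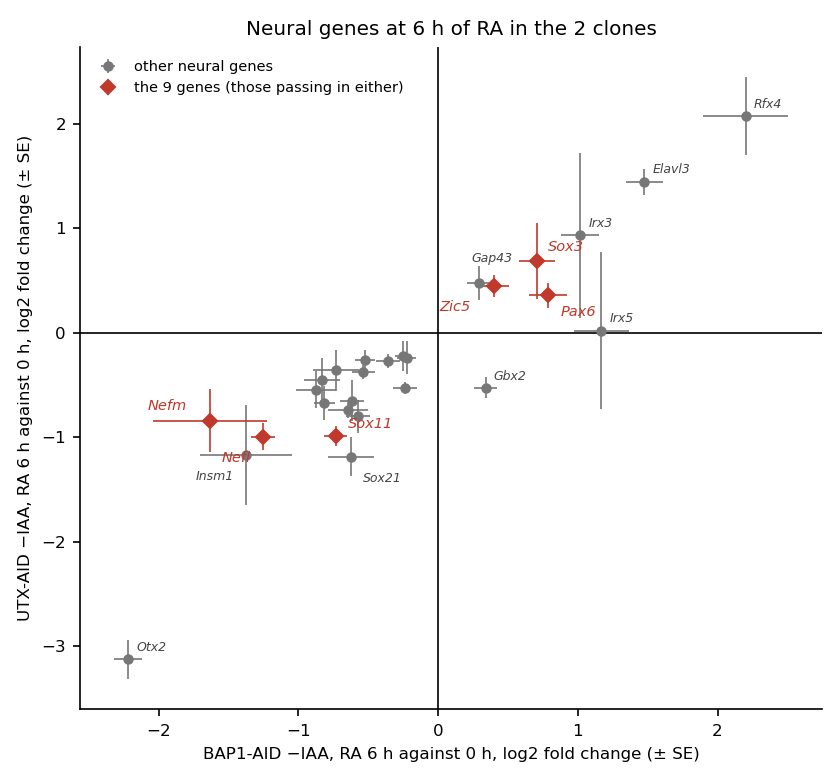
Log2 fold change at 6 h of RA against 0 h without IAA in BAP1-AID (horizontal) and UTX-AID (vertical), ± SE, for the 22 other neural genes (gray) and 6 members (red) with an adjusted p under 0.05 in either clone and tested in both. Otx2 lies lowest in both clones, Elavl3 and Rfx4 lie highest, and Gbx2 lies in the quadrant of opposite signs.

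The genes whose levels followed those of the called members most closely were sought among 12328 genes with a mean of at least 1 CPM, over the 24 libraries, on log2 CPM centered within each clone. For Nefl these were Podxl (Pearson r = 0.974), Meg3 (0.942), and Stx3 (0.939), for Sox11 Tnfsf11 (0.943), Slc38a2 (0.938), and Myb (0.932), and for Nefm Irgm1 (0.872), Shc1 (0.864), and B4galnt3 (0.858). Among the members, Nefl followed Nefm (0.805) and Sox11 (0.795), while Pax6 and Nefl ran in opposite directions (-0.602). Nefm and Nefl share 1152 exonic bases whose reads cannot be assigned to 1 gene, so their values may not be independent. These correlations are descriptions over libraries that share RA times and depth.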

How the data were processed

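RNA-seq libraries of polyA RNA from the 24 samples were analysed from the deposited table of estimated counts per gene, which the authors made from reads aligned to mm39. The submitters' processing notes name HISAT2 2.2.1, SAMtools 1.19, StringTie 2.2.1, and deepTools 3.5.4. The annotation and strand setting of the counting are not given in the sources used here. The deposited estimated counts were whole numbers and were used without rounding.

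Genes were filtered with filterByExpr (minimum count 10, total 15), scaled by TMM, and tested with edgeR 4.0.16 (quasi-likelihood F-test, R 4.3.3) over the 12 groups, with 12 libraries per clone, or all 24 for comparisons between clones. The number of genes tested was 15695 in BAP1-AID, 16268 in UTX-AID, and 16816 over both. P-values were adjusted by Benjamini-Hochberg over all genes tested, at 0.05, and SE is the absolute log2 fold change over the square root of F. Biological coefficients of variation were 11.6% (BAP1-AID) and 11.9% (UTX-AID). CPM uses the library total times the TMM factor computed over all 24 libraries. Expression per kilobase uses the union of exons in the GENCODE annotation of mm39, to which 91.0% of the genes in the table were matched by symbol. Promoter sequences were read from the mm39 genome. Some items are not reported here.

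The 9 genes, the list of other neural genes, and the marker lists were chosen with earlier results of these data known. Named genes were all 9 members, other neural genes called at 6 h in all 4 combinations of clone and arm, and, for each member called at 6 h, the 3 genes of highest correlation. Cdh2, Ina, Nefh, Pou3f1, Sox2, Sox4, Sox12, Sox21, and Gbx2 fall outside this rule and were chosen after their values were seen. Alternatives were DESeq2 1.42.0, its size factors, no low-count filter, no minimum fold, a replicate block, correction of GC content and length by splines, both together, 1 fit of all 24 libraries, and leaving out each library. The test was also run on simulated data.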

Additional observations from a re-analysis of the deposited data

How the results depend on the processing

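Of 198 member values, DESeq2 and its size factors each lost 1 call, dropping the low-count filter and adding the replicate block each gained 1, and no called value changed sign in any alternative. Dropping the minimum fold raised the number of members called at 3 h to 2 in every series, at 6 h to 6 in −IAA BAP1-AID and 3 in each of the other 3 series, from 3 to 6 h to 2 in each clone, and for IAA in BAP1-AID to 1, 2, and 2 at 0, 3, and 6 h. Other neural genes called then numbered 13 at 3 h and 22 at 6 h in both arms of BAP1-AID, 11 at 6 h in −IAA UTX-AID, and 7 and 14 at 3 and 6 h in +IAA UTX-AID. The shares of all genes that passed at any fold are given with each comparison above. With all 24 libraries in one fit, members called at 6 h were 2 in +IAA BAP1-AID and 2 in −IAA UTX-AID, the IAA effect on Zic1 was lost (0 called), and other neural genes called in −IAA BAP1-AID fell to 4. In these comparisons this fit called 738, 333, 324, and 675 of 16816 genes. The main fits called 708, 310, 252, and 644. DESeq2 called 7 other neural genes at 3 h in +IAA BAP1-AID instead of 4, and 486 of all 15695 genes instead of 379. Correcting GC content and length gave 2 members at 6 h in +IAA BAP1-AID and 2 between the clones, as did the replicate block with that correction, which also left 0 called for IAA at 6 h. With the correction, 701 of 15695 genes were called at 6 h in +IAA BAP1-AID and 2652 of 16816 between the clones, instead of 708 and 3510. With the block too, these were 686 and 2628, and for IAA at 6 h in BAP1-AID 88 of 15695 instead of 252. In −IAA UTX-AID at 6 h, 1 member was called without the low-count filter and 1 with the replicate block. All genes called there were 347 of 20393 and 333 of 16268, against 310 of 16268 in the main fit. The cause of these shifts was not tested, though Nefl lay near the 2-fold line outside −IAA BAP1-AID and Sox11 did so in −IAA UTX-AID.

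Replicate numbers did not pair the libraries, since deviations from group means correlated at -0.0387 to 0.0626 in BAP1-AID and -0.0119 to 0.0724 in UTX-AID over 15 pairs of groups each. The replicate block changed no other call past 2-fold of a member. Leaving out 1 library at a time, members called at 6 h ranged from 1 to 2 and from 0 to 2 in −IAA and +IAA BAP1-AID, and from 0 to 2 and from 1 to 2 in UTX-AID. At 3 h in UTX-AID they ranged from 0 to 1 in each arm, for IAA they were 0 throughout, both for BAP1-AID at 6 h and for UTX-AID at 3 h, and between the clones they ranged from 2 to 4. Other neural genes called at 6 h in +IAA BAP1-AID ranged from 4 to 8, with 8 without replicate 1 of 0 h. For the fits that left out 1 library, calls over all genes were not counted, so these member counts have no share beside them. With 2 libraries per group, and with under 30 counts of Zic1 in UTX-AID, small changes were not detectable.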
